A study of Mus musculus with 15 samples.

Results

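RNA-seq libraries of MLL-AF9 cells named LT were compared with libraries named BMTGMP, to describe what all LT libraries share against BMTGMP. All 8 libraries whose table columns contain LTearly or LTlate were pooled as 1 group and set against the 3 libraries BMTGMP 1, 2 and 4, which makes 11 of the 15 libraries of the series. The other 4 are wtGMP, read as granulocyte-macrophage progenitors (GMPs) of wild-type mice, and they place both leukaemia groups against normal cells. LT was read as leukaemias that began in long-term haematopoietic stem cells and BMTGMP as leukaemias that began in GMPs, after the study's topic. The labels spell out neither name, nor wtGMP, and state no sorting gate per library, no age, no time and no treatment of the mice. Per the labels, the human fusion cDNA MLL-AF9 was placed in A2Lox-cre embryonic stem cells, selected clones gave chimeric mice, and these were crossed back to C57BL/6, the strain given for every library. Double heterozygous females were used, and the source of every library is bone marrow. How wtGMP mice differ from these is not stated. Magnetic depletion of cells with Cd5, Cd11b, B220, Gr-1 or Ter119 came before sorting into gates for GMPs and long-term stem cells. LT replicate 2 is LTearly by title but LTlate by column, which does not matter in a pooled group.

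MLL-AF9 is an oncogenic fusion protein. Its front comes from MLL, a histone methyltransferase that mice encode in Kmt2a, and its rear from AF9, encoded in Mllt3. It holds active a set of developmental genes such as Hoxa9 and Meis1 that are normally shut off as stem cells mature. The fusion can transform stem cells as well as committed GMPs, and the cell in which it acts first is called the cell of origin. GMPs are the bone marrow cells that give rise to neutrophils and monocytes. The study's title ties MLL-AF9 in stem cells to invasive leukaemia and to the epithelial-mesenchymal transition (EMT), a programme by which cells lose junctions and become motile.

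Counts on named genes ran from 2696036 to 15092528 per library in LT, 4555960 to 10712578 in BMTGMP and 2469452 to 6978682 in wtGMP. Levels are CPM, counts relative to the library's TMM-scaled total, and changes are log2 fold changes of LT over BMTGMP ± standard error (SE) from edgeR's quasi-likelihood test, with adjusted p under 0.05 as the threshold of a call. Nothing in the labels says that replicates are separate animals. Tags such as grLT3 and grD2 recur among the LT titles, and grV is in the titles of BMTGMP 1 and BMTGMP 2. The M number before a recurring tag differs between titles. The p-values therefore measure the spread between these libraries. Genes that define the sorted and depleted cells went partly against the labelled progenitor state. Itgam (CD11b), a target of the depletion, averaged 1327 ± 283 CPM in LT (SD, n = 8), 472 ± 62.4 in BMTGMP (n = 3) and 56.9 ± 18.7 in wtGMP (n = 4). Kit, a receptor of stem cells and progenitors, averaged 40.3 ± 25.4 CPM in LT, 66.3 ± 20.6 in BMTGMP and 194 ± 33.7 in wtGMP. Cd34, a surface marker of GMPs, averaged 60.7 ± 52.1 CPM in LT, 4.73 ± 1.69 in BMTGMP and 249.6 ± 28.4 in wtGMP. The stem cell markers Slamf1 (CD150) and Ly6a (Sca-1) averaged 0.490 ± 1.23 and 3.23 ± 5.35 CPM in LT. These markers of the stem cell gate were thus at or near 0 in most LT libraries, and Itgam was higher in both leukaemia groups than in wtGMP.

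Of 15242 genes tested, 390 (2.56%) were called higher in LT than in BMTGMP and 208 (1.36%) lower. All 8 LT libraries lay above all 3 BMTGMP libraries at 329 of the 390 higher genes and below them at 160 of the 208 lower genes. Without regard to the call, this complete separation held at 586 genes (3.84%) upward and 494 (3.24%) downward. At 298 higher and 107 lower genes the fold change exceeded 2, and at 53 and 21 genes the nearest libraries of the groups were themselves more than 2-fold apart. The median log2 fold change was 1.51 over the higher genes and -1.01 over the lower genes, and 0.05 over all genes tested. The count depended on the 3 BMTGMP libraries. It was 239 higher and 97 lower without BMTGMP 1, 250 and 102 without BMTGMP 2, and 175 and 86 without BMTGMP 4, while 122 higher and 38 lower genes were called in the same direction in every fit that left out 1 LT or BMTGMP library. Over all 15242 genes, 2530 had an unadjusted p under 0.05, and DESeq2 called 868 higher and 342 lower. Counts given below for a list are to be read beside these and beside the 2.56% and 1.36% called by edgeR. Because these are bulk samples, fewer cells of a type and less RNA per cell cannot be told apart.

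Against wtGMP, 2918 genes (19.1%) were called in LT and 803 (5.27%) in BMTGMP, both contrasts sharing the wtGMP libraries with each other and LT or BMTGMP with the comparison above. LT entered with 8 libraries and BMTGMP with 3, so these counts do not measure how far each group lies from wtGMP. The BMTGMP count was 747 without BMTGMP 1, 613 without BMTGMP 2 and 580 without BMTGMP 4. Of the 390 genes higher in LT than in BMTGMP, the wtGMP mean lay between the groups at 186, below both at 161 and above both at 43. Of the 208 lower genes it lay between them at 96, below both at 36 and above both at 76. A gene higher in LT than in BMTGMP was therefore not always higher than in normal progenitors.

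The 14 called genes with the widest empty gap between the lowest LT and the highest BMTGMP library, among those with at least 5 CPM on average in LT, led the shared rises. Slpi, a secreted inhibitor of neutrophil proteases, ran from 76.2 to 288 CPM with a median of 138 in the LT libraries, against 9.99, 9.32 and 0.621 CPM in the BMTGMP libraries and 40.6, 34.9, 42.3 and 43.2 CPM in wtGMP. The Slpi log2 fold change was 4.52 ± 0.66 (adjusted p = 0.00161). Dsp, the desmosome protein desmoplakin, ran from 96.3 to 736 CPM with a median of 355 in the LT libraries, against 3.08, 0.907 and 15.5 CPM in the BMTGMP libraries and 17.8, 11.1, 6.71 and 7.94 CPM in wtGMP. The Dsp log2 fold change was 6.07 ± 1.10 (adjusted p = 0.00862). LT and BMTGMP did not overlap at either gene, and every LT library also exceeded every wtGMP library. Padi4, which converts arginine to citrulline in neutrophil proteins, ran from 124 to 213 CPM with a median of 138 in the LT libraries, against 1.96, 21.4 and 24.2 CPM in the BMTGMP libraries (log2 fold change 3.26 ± 0.60, adjusted p = 0.00789), and the 8 LT values lay close together. The Padi4 call was lost with LTlate-titled LT libraries alone (adjusted p = 0.0711). Eps8l1, an actin regulator of the Eps8 family, ran from 2.47 to 20.7 CPM with a median of 9.47 in the LT libraries, against 0, 0 and 0 CPM in the BMTGMP libraries and 1.15, 4.76, 2.68 and 4.45 CPM in wtGMP. With no count in any BMTGMP library it was at least 67.5-fold higher in LT, taking 3 counts over the BMTGMP group as the floor (adjusted p = 0.000185).

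**Figure D1:**
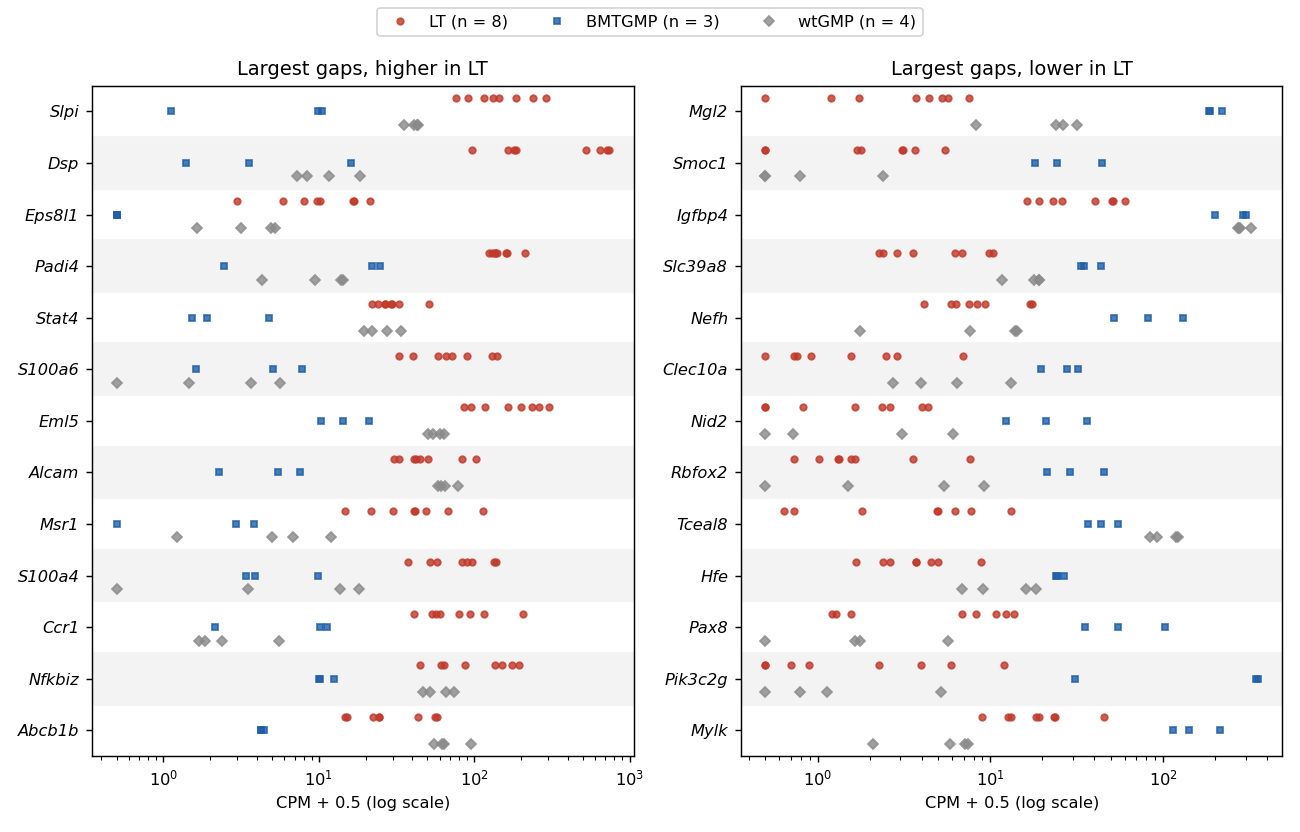
Level of 13 of the genes with the largest gap in each direction (CPM with 0.5 added, log axis), 1 point per library, for LT (n = 8), BMTGMP (n = 3) and wtGMP (n = 4) from top to bottom within a gene. In the left panel all LT points lie to the right of all BMTGMP points, and in the right panel to the left of them, as the choice of genes requires; wtGMP lies on either side.

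Neighbouring S100 genes, whose small proteins bind calcium, were among these rises. S100a4, also counted among EMT genes, ran from 36.9 to 138 CPM with a median of 86.0 in the LT libraries, against 3.36, 9.45 and 2.90 CPM in the BMTGMP libraries and 3.02, 0, 13.2 and 17.8 CPM in wtGMP. The S100a4 log2 fold change was 4.02 ± 0.88 (adjusted p = 0.0232). S100a6 ran from 32.2 to 140.2 CPM with a median of 68.6 in the LT libraries, against 1.12, 7.25 and 4.55 CPM in the BMTGMP libraries and 3.17, 5.16, 0 and 0.953 CPM in wtGMP. The S100a6 log2 fold change was 4.20 ± 0.83 (adjusted p = 0.0124). Both were low in BMTGMP and in wtGMP, and every LT library was above every library of the other groups. The S100a4 call was lost in these fits, with the adjusted p in brackets: without BMTGMP 1 (0.121), BMTGMP 2 (0.0509, log2 fold change 4.75) or BMTGMP 4 (0.136), and with LTlate-titled LT libraries alone (0.0564). That of S100a6 was lost without BMTGMP 1 (0.053) or BMTGMP 4 (0.0814). That of Dsp was lost without BMTGMP 1 (0.0547).

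Ccr1, a chemokine receptor of monocytes and neutrophils, ran from 40.7 to 206 CPM with a median of 69.6 in the LT libraries, against 9.62, 10.9 and 1.66 CPM in the BMTGMP libraries and 1.87, 1.19, 1.34 and 5.08 CPM in wtGMP. The Ccr1 log2 fold change was 3.53 ± 0.66 (adjusted p = 0.00673). The scavenger receptor gene Msr1 ran from 14.3 to 113 CPM with a median of 40.8 in the LT libraries, against 2.43, 0 and 3.31 CPM in the BMTGMP libraries (log2 fold change 4.64 ± 1.06, adjusted p = 0.0274), with no count in BMTGMP 2, and its call was lost without BMTGMP 1 (0.116), BMTGMP 2 (0.058, log2 fold change 4.05) or BMTGMP 4 (0.102). With the title number as a block in the fit the Msr1 call was lost too (0.0776). At both genes LT was also called higher than wtGMP, with a log2 fold change of 5.24 ± 0.68 at Ccr1 and 3.08 ± 0.85 at Msr1.

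At other genes with a large gap, LT did not stand above normal progenitors. Stat4, which relays interleukin-12 signals, ran from 21.4 to 51.0 CPM with a median of 27.3 in the LT libraries, against 1.40, 4.27 and 1.03 CPM in the BMTGMP libraries and 33.4, 21.4, 27.1 and 19.1 CPM in wtGMP. The Stat4 log2 fold change was 3.71 ± 0.47 (adjusted p = 1.66e-05). Alcam (CD166), an adhesion molecule, ran from 30.2 to 103 CPM with a median of 43.3 in the LT libraries, against 1.77, 7.12 and 4.97 CPM in the BMTGMP libraries and 57.7, 77.8, 64.0 and 60.7 CPM in wtGMP. The Alcam log2 fold change was 3.54 ± 0.45 (adjusted p = 3.1e-05). At both genes the LT and wtGMP ranges overlapped, and LT against wtGMP was not called (adjusted p = 0.703 for Stat4 and 0.596 for Alcam). BMTGMP against wtGMP was called, with log2 fold changes of -3.47 ± 0.49 for Stat4 and -3.83 ± 0.48 for Alcam. Abcb1b, an efflux pump of the multidrug resistance family, ran from 14.3 to 57.5 CPM with a median of 23.9 in the LT libraries, against 3.92, 3.76 and 3.72 CPM in the BMTGMP libraries and 63.9, 95.2, 54.3 and 62.0 CPM in wtGMP. The Abcb1b log2 fold change was 3.07 ± 0.45 (adjusted p = 0.000119). Here both leukaemia groups were called lower than wtGMP, with log2 fold changes of -1.10 ± 0.32 for LT and -4.17 ± 0.50 for BMTGMP. Abcb1b has a close copy, Abcb1a, and reads shared by both are divided.

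Nfkbiz, a nuclear regulator of NF-kB target genes, ran from 44.4 to 194 CPM with a median of 111 in the LT libraries, against 11.9, 9.58 and 9.72 CPM in the BMTGMP libraries and 46.6, 51.2, 73.4 and 65.5 CPM in wtGMP. The Nfkbiz log2 fold change was 3.44 ± 0.46 (adjusted p = 0.000185). Eml5, a microtubule-associated protein gene, ran from 85.0 to 303 CPM with a median of 182 in the LT libraries, against 9.90, 13.9 and 20.5 CPM in the BMTGMP libraries and 63.0, 59.5, 53.7 and 49.9 CPM in wtGMP. The Eml5 log2 fold change was 3.65 ± 0.42 (adjusted p = 3.71e-05). The LT libraries at Nfkbiz spanned the wtGMP range, and at Eml5 all of them lay above it.

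The 14 falls with the widest gap began with genes that were highest in BMTGMP. Mgl2, a galactose-binding lectin of macrophages and dendritic cells, ran from 0 to 7.01 CPM with a median of 3.57 in the LT libraries, against 183, 187 and 219.9 CPM in the BMTGMP libraries and 7.77, 25.8, 31.3 and 23.5 CPM in wtGMP. The Mgl2 log2 fold change was -5.86 ± 0.60 (adjusted p = 8.5e-05). Its neighbour and relative Clec10a ran from 0 to 6.43 CPM with a median of 0.736 in the LT libraries, against 27.4, 19.2 and 31.9 CPM in the BMTGMP libraries and 3.45, 5.95, 2.24 and 12.7 CPM in wtGMP. The Clec10a log2 fold change was -4.10 ± 0.80 (adjusted p = 0.00222). Both lectins were lower in all 8 LT libraries than in any BMTGMP library, and since their sequences are alike, reads may be divided between them.

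Pik3c2g, a lipid kinase gene, ran from 0 to 11.5 CPM with a median of 1.08 in the LT libraries, against 353, 30.4 and 343 CPM in the BMTGMP libraries (log2 fold change -6.41 ± 1.08, adjusted p = 0.00539), with BMTGMP 2 far under BMTGMP 1 and 4 and still above every LT library. Its call was lost with LTlate-titled LT libraries alone (0.0566). Pax8, a paired-box factor of thyroid and kidney, ran from 0.705 to 13.2 CPM with a median of 7.07 in the LT libraries, against 35.0, 103 and 54.0 CPM in the BMTGMP libraries. The Pax8 log2 fold change was -3.25 ± 0.81 (adjusted p = 0.0373). The Pax8 call was lost without LT 1 (0.0599), LT 2 (0.0573), BMTGMP 1 (0.0676), BMTGMP 2 (0.128) or BMTGMP 4 (0.106), and with no low-count filter (0.0648). With the title number as a block in the fit the Pax8 call was lost too (0.158). Mylk, the kinase of myosin light chain, ran from 8.47 to 45.2 CPM with a median of 18.3 in the LT libraries, against 141, 114 and 214 CPM in the BMTGMP libraries and 6.91, 1.59, 5.37 and 6.67 CPM in wtGMP. The Mylk log2 fold change was -2.94 ± 0.36 (adjusted p = 3.71e-05). At Mylk all LT libraries were above all wtGMP libraries and below all BMTGMP libraries.

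Igfbp4, which binds insulin-like growth factors, ran from 15.9 to 59.7 CPM with a median of 32.8 in the LT libraries, against 201, 289 and 302 CPM in the BMTGMP libraries and 279, 272, 274 and 322 CPM in wtGMP. The Igfbp4 log2 fold change was -2.89 ± 0.31 (adjusted p = 3.1e-05). The zinc importer gene Slc39a8 ran from 1.77 to 9.84 CPM with a median of 4.41 in the LT libraries, against 32.9, 43.1 and 34.1 CPM in the BMTGMP libraries and 18.6, 18.6, 17.4 and 11.1 CPM in wtGMP. The Slc39a8 log2 fold change was -2.89 ± 0.46 (adjusted p = 0.000229). Hfe, a regulator of iron uptake, ran from 1.17 to 8.29 CPM with a median of 3.21 in the LT libraries, against 26.2, 23.7 and 23.4 CPM in the BMTGMP libraries and 8.63, 17.9, 15.7 and 6.35 CPM in wtGMP. The Hfe log2 fold change was -2.79 ± 0.52 (adjusted p = 0.00155). At Igfbp4 and Slc39a8 every LT library was below every library of both other groups, and LT against wtGMP was called (log2 fold change -3.01 ± 0.29 and -1.73 ± 0.44). BMTGMP against wtGMP was not called (log2 fold change -0.12 ± 0.37 and 1.16 ± 0.55, adjusted p = 0.937 and 0.262). All BMTGMP libraries still lay above all wtGMP libraries at Slc39a8. At Hfe the LT and wtGMP ranges overlapped.

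Other falls were low in LT as well. Nefh, the heavy neurofilament gene, ran from 3.64 to 16.9 CPM with a median of 7.44 in the LT libraries, against 51.7, 81.8 and 129.7 CPM in the BMTGMP libraries. The Nefh log2 fold change was -3.29 ± 0.46 (adjusted p = 0.000165). The splicing regulator gene Rbfox2 ran from 0.235 to 7.14 CPM with a median of 0.948 in the LT libraries, against 20.9, 28.4 and 45.1 CPM in the BMTGMP libraries. The Rbfox2 log2 fold change was -4.07 ± 0.82 (adjusted p = 0.00418). Genes of the basement membrane were Nid2 (nidogen), at 0 to 3.84 CPM in LT against 11.8 to 35.7 CPM in BMTGMP (log2 fold change -3.78 ± 0.95, adjusted p = 0.0191), and Smoc1, at 0 to 4.93 CPM in LT against 17.7 to 44.1 CPM in BMTGMP (log2 fold change -3.84 ± 0.90, adjusted p = 0.0141). Tceal8 was at 0.137 to 12.7 CPM in LT against 36.4 to 54.5 CPM in BMTGMP (log2 fold change -3.34 ± 0.78, adjusted p = 0.0328) and higher still in wtGMP, with 118, 83.3, 91.2 and 122 CPM in wtGMP. The call of Rbfox2 was lost with transcripts summed per gene (0.0584). That of Nid2 was lost without BMTGMP 1 (0.0683) or BMTGMP 2 (0.219), and with LTearly-titled LT libraries alone (0.0686) or the title number as a block (0.115). That of Smoc1 was lost without BMTGMP 4 (0.184), and with LTlate-titled LT libraries alone (0.0959), transcripts summed per gene (0.0601) or the title number as a block (0.105). That of Tceal8 was lost without LT 3 (0.055), LT 4 (0.0509), BMTGMP 1 (0.0899), BMTGMP 2 (0.114) or BMTGMP 4 (0.0914), and with wtGMP left out of the fit (0.0652) or LTlate-titled LT libraries alone (0.0582, log2 fold change -3.98).

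The bases before the start of the first rise and the first fall are shown, since genes that separate the groups completely are where a promoter would be read first. The sequences are RefSeq's, build GRCm38.p6, 5′ to 3′ in the direction of the gene. Slpi is on the minus strand (chr2:164356508-164356757) and Mgl2 on the plus strand (chr11:70130107-70130356).
Slpi: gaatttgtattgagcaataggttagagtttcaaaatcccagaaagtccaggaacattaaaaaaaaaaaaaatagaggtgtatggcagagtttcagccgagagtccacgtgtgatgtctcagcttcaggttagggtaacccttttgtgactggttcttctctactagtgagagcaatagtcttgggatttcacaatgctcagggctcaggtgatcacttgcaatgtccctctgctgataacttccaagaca
Mgl2: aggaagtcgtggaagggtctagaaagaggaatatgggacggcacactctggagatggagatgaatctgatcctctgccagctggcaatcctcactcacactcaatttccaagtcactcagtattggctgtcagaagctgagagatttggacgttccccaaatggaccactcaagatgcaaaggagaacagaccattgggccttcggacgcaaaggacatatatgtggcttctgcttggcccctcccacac
Over the same 250 bases, 12 motifs were searched on both strands in the 11 rises and 8 falls of the largest-gap genes that have an entry in the table, and capitals would mark a match. The sequences above hold none of the 12, so all their letters are in lower case. The motif of AP-1, TGAGTCA, was in 1 of 11 rises (Padi4) and 2 of 8 falls (Hfe and Mylk), beside 4.46% of 32851 promoters. GAGGAAG was in 2 of 11 rises (Abcb1b and Alcam) and 0 of 8 falls, beside 10.6%, and CCGGAAG and TTCNNNGAA were in 1 fall each (Mylk and Pik3c2g), beside 6.91% and 7.02%. The degenerate NF-kB motif was in 1 rise (Ccr1), beside 7.25%. The other 7 were in none of these genes: TGATTTAT (0.837% of all promoters), TGACGTCA (1.55%), GGAAGTG (8.55%), TTCCGGAA (0.591%), TTGCGCAA (0.164%), the consensus NF-kB motif (0.14%) and the CArG box of serum response factor (0.0609%). The 3 motifs that contain GGAAG share those letters, so a stretch can match more than 1 of them. A gene was counted if any of its promoter entries held the motif, while each percent is over single promoter entries. The counts of genes and the percents are therefore unlike measures. A match is a description of these letters and not a bound site.

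Transcription factor genes differed in both directions. Erg, an ETS factor needed by stem cells, ran from 47.5 to 108 CPM with a median of 88.5 in the LT libraries, against 5.04, 16.6 and 6.62 CPM in the BMTGMP libraries and 43.9, 37.7, 38.9 and 36.9 CPM in wtGMP. The Erg log2 fold change was 3.11 ± 0.35 (adjusted p = 4.85e-06). All 8 LT libraries were above all wtGMP libraries, and these above all BMTGMP libraries. LT was called higher than wtGMP (1.05 ± 0.27, adjusted p = 0.0063) and BMTGMP lower (-2.06 ± 0.36, adjusted p = 0.000302). Erg was the only called gene of 28 tested stem cell genes, whose median log2 fold change was 0.31, against 0.05 over all genes (DESeq2 called 3 higher, and edgeR 2 without LT 1, LT 2, LT 5 or BMTGMP 1). Mef2c, a factor of lymphoid and myeloid progenitors listed with MLL fusion targets, ran from 284 to 839.5 CPM with a median of 461 in the LT libraries, against 121, 39.8 and 75.5 CPM in the BMTGMP libraries and 313, 309, 363 and 448 CPM in wtGMP. The Mef2c log2 fold change was 2.62 ± 0.38 (adjusted p = 0.000776). LT overlapped wtGMP at Mef2c and BMTGMP was called lower than wtGMP (-2.18 ± 0.39, adjusted p = 0.0025).

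Of 35 myeloid and progenitor transcription factor genes, 5 were called higher and 2 lower (median 0.55). Klf2, which restrains activation of monocytes and T cells, ran from 45.1 to 88.4 CPM with a median of 59.8 in the LT libraries, against 23.2, 25.3 and 17.6 CPM in the BMTGMP libraries. The Klf2 log2 fold change was 1.47 ± 0.28 (adjusted p = 0.00178). Nr4a1, an orphan nuclear receptor, ran from 28.6 to 83.1 CPM with a median of 55.8 in the LT libraries, against 3.64, 17.9 and 8.48 CPM in the BMTGMP libraries. The Nr4a1 log2 fold change was 2.55 ± 0.47 (adjusted p = 0.00178). Both also lay above wtGMP in every LT library. The retinoic acid receptor gene Rara (24.1 to 105 CPM in LT against 12.0 to 23.0 CPM in BMTGMP; log2 fold change 1.75 ± 0.41, adjusted p = 0.0136) and the repressor gene Etv6 (147 to 248.6 CPM in LT against 98.7 to 108 CPM in BMTGMP; log2 fold change 0.78 ± 0.18, adjusted p = 0.0109) rose too, and Gfi1, a repressor of monocyte genes in neutrophil development, was lower (39.7 to 152 CPM in LT against 178 to 346 CPM in BMTGMP; log2 fold change -1.32 ± 0.30, adjusted p = 0.0153). These 3 were chosen after their values were seen. Without BMTGMP 4 the list had 3 higher and 0 lower calls, and without BMTGMP 2 it had 1 lower call.

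**Figure D2:**
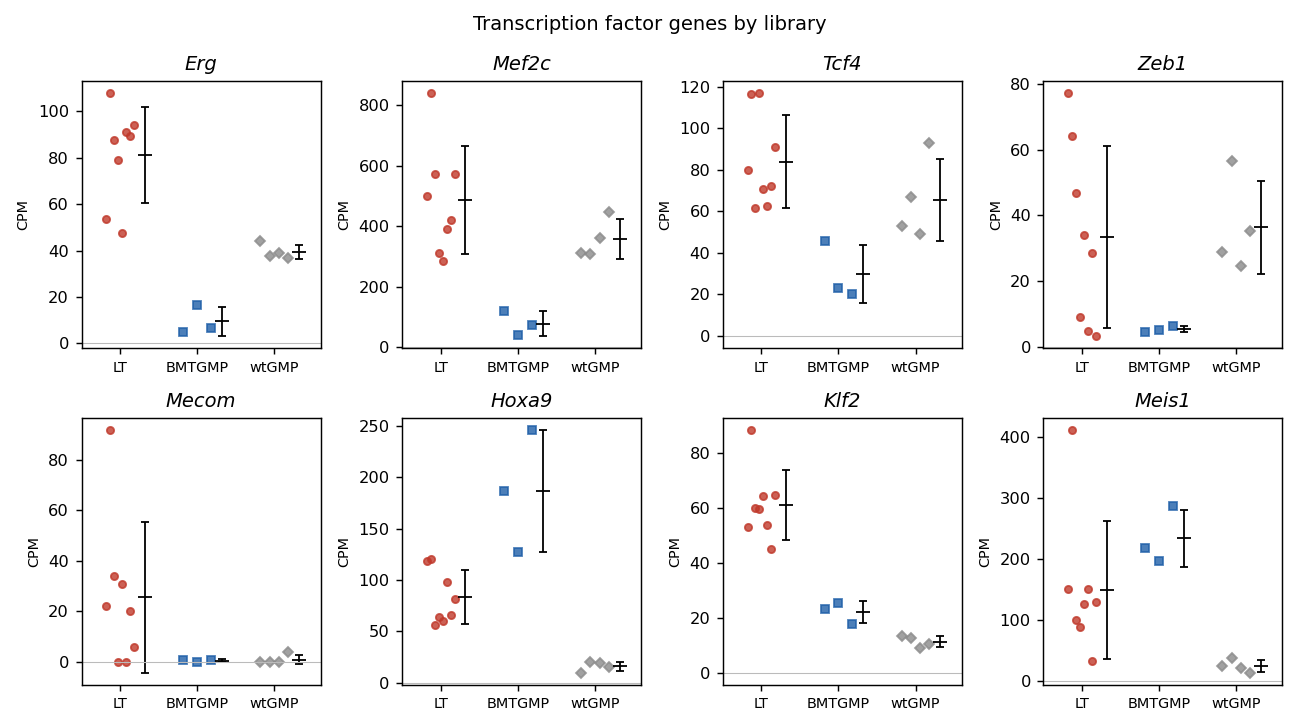
Level of 8 transcription factor genes (CPM, linear axis) in each library of LT (n = 8), BMTGMP (n = 3) and wtGMP (n = 4), with mean and SD in black. Erg, Mef2c and Tcf4 are higher in LT than in BMTGMP without overlap, as is Klf2, Hoxa9 is lower, and Zeb1, Mecom and Meis1 spread widely among the LT libraries.

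Among targets of MLL fusions, 1 of 23 was called higher and 3 lower (median -0.32). Hoxa9, which keeps progenitors dividing, ran from 56.7 to 121 CPM with a median of 73.7 in the LT libraries, against 186, 127 and 246 CPM in the BMTGMP libraries and 9.93, 19.8, 19.5 and 15.3 CPM in wtGMP. The Hoxa9 log2 fold change was -1.16 ± 0.25 (adjusted p = 0.00484). Every LT library was below every BMTGMP library and above every wtGMP library, and both leukaemia groups were called higher than wtGMP, with log2 fold changes of 2.38 ± 0.27 for LT and 3.55 ± 0.31 for BMTGMP. The histone demethylase gene Jmjd1c ran from 415 to 766 CPM with a median of 565 in the LT libraries, against 933, 668 and 959 CPM in the BMTGMP libraries (log2 fold change -0.59 ± 0.17, adjusted p = 0.0374), with BMTGMP 2 inside the LT range. The Hoxa9 call was lost without BMTGMP 4 (0.0992), which left 1 lower call in the list. The Jmjd1c call was lost without LT 3 (0.0598), LT 4 (0.061), LT 7 (0.0567), BMTGMP 1 (0.192) or BMTGMP 4 (0.221), and with wtGMP left out of the fit (0.0769) or LTearly-titled LT libraries alone (0.0735). Meis1, the partner of Hoxa9, ran from 32.4 to 411 CPM with a median of 127 in the LT libraries, against 218, 197 and 286 CPM in the BMTGMP libraries, and the difference was not called (log2 fold change -0.65 ± 0.53, adjusted p = 0.66). Hoxa7, Hoxa10 and Pbx3, chosen after their values were seen, were not called (log2 fold change -0.32 ± 0.24, -0.44 ± 0.52 and 0.03 ± 0.55), and the LT and BMTGMP libraries overlapped at each.

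Genes of the fusion partners were not called. Kmt2a ran from 202 to 390.5 CPM with a median of 337 in the LT libraries, against 306, 280.4 and 438 CPM in the BMTGMP libraries (log2 fold change -0.07 ± 0.19, adjusted p = 0.955), and Mllt3 ran from 2.12 to 12.998 CPM with a median of 6.83 in the LT libraries, against 9.99, 2.33 and 5.59 CPM in the BMTGMP libraries. The Mllt3 log2 fold change was 0.37 ± 0.54 (adjusted p = 0.87). A read of the human transgene enters these values only if it aligns to the mouse transcript, so they do not measure the fusion. Kmt2a overlapped in all 3 groups, while both leukaemia groups were below wtGMP in every library at Mllt3.

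EMT genes were called higher at 5 of 28 and lower at 0 (median 0.54; 12 had an unadjusted p under 0.05, and DESeq2 called 7 higher and 1 lower). Cd44, the hyaluronan receptor, ran from 432 to 1011 CPM with a median of 494 in the LT libraries, against 264, 158 and 248.9 CPM in the BMTGMP libraries and 320.5, 266, 273 and 312 CPM in wtGMP. The Cd44 log2 fold change was 1.32 ± 0.23 (adjusted p = 0.00068). LT 1 was far above the other LT libraries, and the groups did not overlap. Tcf4, a helix-loop-helix factor also used by plasmacytoid dendritic cells, ran from 61.6 to 117 CPM with a median of 76.1 in the LT libraries, against 45.9, 23.3 and 20.3 CPM in the BMTGMP libraries and 52.96, 66.7, 49.0 and 93.1 CPM in wtGMP. The Tcf4 log2 fold change was 1.49 ± 0.29 (adjusted p = 0.00247). Vim (vimentin) ran from 1462 to 3056 CPM with a median of 2242 in the LT libraries, against 1741, 657 and 543 CPM in the BMTGMP libraries, with BMTGMP 1 inside the LT range (log2 fold change 1.20 ± 0.29, adjusted p = 0.0265), and its call was lost without LT 1 (0.0567), BMTGMP 2 (0.154) or BMTGMP 4 (0.122), and with no low-count filter (0.0572), wtGMP left out of the fit (0.0512), LTearly-titled LT libraries alone (0.0668) or LTlate-titled LT libraries alone (0.122). Tgfbi, a secreted protein induced by TGF-beta and chosen here after its values were seen, was at 114 to 868 CPM in LT against 40.8 to 81.5 CPM in BMTGMP (log2 fold change 2.601 ± 0.59, adjusted p = 0.0274). The count was 3 without BMTGMP 1, 2 without BMTGMP 2 and 2 without BMTGMP 4, and 3 with LTlate-titled LT libraries alone.

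Zeb1, a repressor of epithelial genes that is central to EMT, ran from 3.29 to 77.3 CPM with a median of 31.2 in the LT libraries, against 4.48, 5.18 and 6.41 CPM in the BMTGMP libraries and 28.9, 56.7, 24.6 and 35.3 CPM in wtGMP, and was not called (log2 fold change 2.64 ± 0.93, adjusted p = 0.161). Of the 8 LT libraries, 6 exceeded all BMTGMP libraries and 2, LT 6 and LT 8, did not. DESeq2 called it (adjusted p = 0.00391). By edgeR it was called with equal weight of LTearly and LTlate by title (0.0113), with LTearly-titled libraries alone (4.38e-05) and without LT 8 (0.045). Mecom (Evi1), a stem cell factor, ran from 0 to 91.8 CPM with a median of 21.2 in the LT libraries, against 0.840, 0 and 0.828 CPM in the BMTGMP libraries and 0, 0, 0 and 3.81 CPM in wtGMP, and was not called (log2 fold change 5.49 ± 2.30, adjusted p = 0.257). LT 4 and LT 6 had no Mecom count, so neither gene is shared by all 8 LT libraries. With LTearly-titled libraries alone Mecom was called (0.0221). Of 11 epithelial junction and keratin genes, 1, the Dsp described above, was called higher and 0 lower (median 0.72), and without BMTGMP 1 none was.

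Migration and adhesion genes had the largest share of edgeR's higher calls among the lists, while by DESeq2 late neutrophil genes (14 of 21) had it. Of 42 tested, 15 were called higher and 0 lower (21 at an unadjusted p under 0.05; DESeq2 18 and 0), with a median of 1.05 against 0.05 over all genes. Without 1 library the count was 10 to 16. Integrins, the receptors that bind matrix and other cells, are part of the list. Itgam, the alpha chain of Mac-1, ran from 867 to 1666 CPM with a median of 1319 in the LT libraries, against 415, 538 and 461 CPM in the BMTGMP libraries and 58.4, 31.3, 76.0 and 61.6 CPM in wtGMP. The Itgam log2 fold change was 1.49 ± 0.22 (adjusted p = 0.000142). Groups did not overlap in any pair at Itgam, LT standing above BMTGMP and BMTGMP above wtGMP. Its partner Itgb2 was at 436 to 696 CPM in LT against 268 to 457 CPM in BMTGMP (log2 fold change 0.82 ± 0.19, adjusted p = 0.00967), with BMTGMP 4 above the lowest LT library. Itga1 (3.31 ± 0.63), Itga6 (2.39 ± 0.43) and Itgb7 (2.86 ± 0.53), chosen after their values were seen, rose without overlap.

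**Figure D3:**
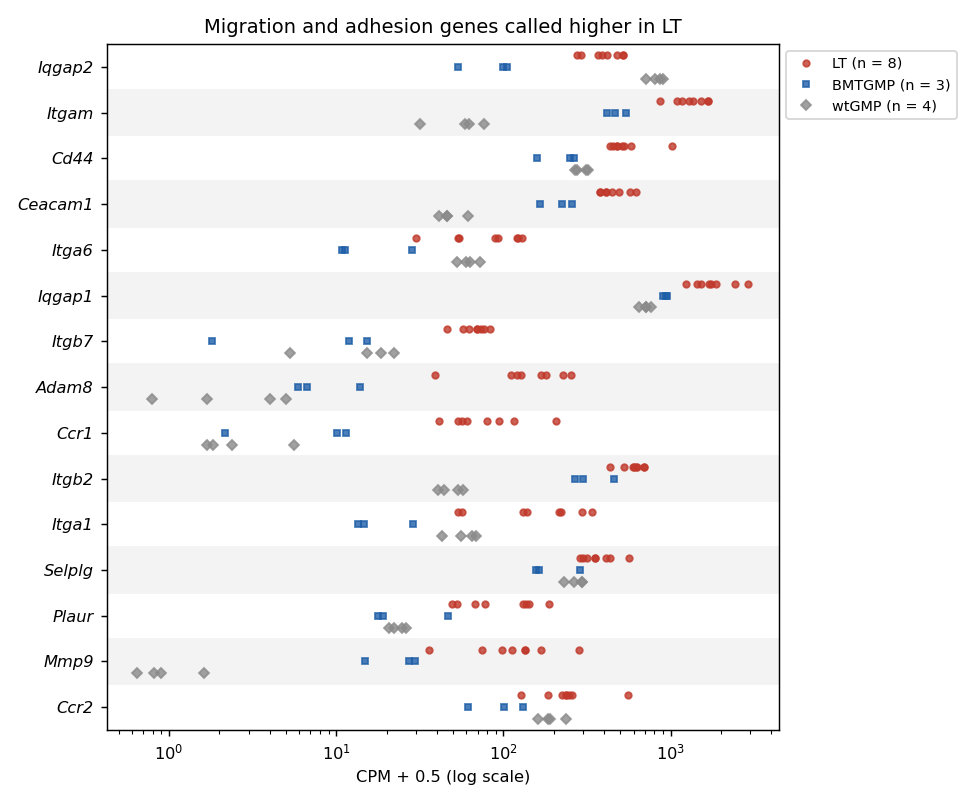
Level of the 15 migration and adhesion genes called higher in LT (CPM with 0.5 added, log axis), 1 point per library, for LT (n = 8), BMTGMP (n = 3) and wtGMP (n = 4) from top to bottom within a gene. The LT points lie to the right of the BMTGMP points with overlap only at Itgb2, Selplg and Ccr2, and at Iqgap2 the wtGMP points lie to the right of both.

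Iqgap2, a scaffold of the cytoskeleton, had the smallest p of the list and ran from 276 to 521 CPM with a median of 402 in the LT libraries, against 98.2, 104 and 53.2 CPM in the BMTGMP libraries and 863, 712, 898 and 811 CPM in wtGMP. The Iqgap2 log2 fold change was 2.25 ± 0.23 (adjusted p = 8.4e-07). LT was thus higher than BMTGMP and lower than wtGMP at Iqgap2, both called (log2 fold change -1.01 ± 0.18 for LT against wtGMP). Its relative Iqgap1 was at 1228 to 2915 CPM in LT against 902 to 953 CPM in BMTGMP (log2 fold change 0.996 ± 0.20, adjusted p = 0.00289). Ceacam1, a cell adhesion molecule of the immunoglobulin family, ran from 375 to 621 CPM with a median of 427 in the LT libraries, against 165, 256 and 222 CPM in the BMTGMP libraries (log2 fold change 1.11 ± 0.20, adjusted p = 0.000769), and it has a close copy, Ceacam2, with which reads are divided. Enzymes that cut matrix or surface proteins were the gelatinase gene Mmp9, which ran from 35.4 to 282 CPM with a median of 123 in the LT libraries, against 14.4, 29.0 and 26.9 CPM in the BMTGMP libraries (log2 fold change 2.47 ± 0.53, adjusted p = 0.0164), and Adam8, at 38.7 to 252 CPM in LT against 5.41 to 13.3 CPM in BMTGMP (log2 fold change 4.19 ± 0.70, adjusted p = 0.00436). The Mmp9 call was lost without BMTGMP 1 (0.106), BMTGMP 2 (0.0778) or BMTGMP 4 (0.105). Plaur, the urokinase receptor, and Ccr2, a chemokine receptor of monocytes, were called as well (1.93 ± 0.43 and 1.40 ± 0.36), as was the selectin ligand gene Selplg (0.90 ± 0.21). Itgb2, Iqgap1, Adam8, Plaur, Ccr2 and Selplg were named after their values were seen.

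Several well known adhesion genes were not called and overlapped. The homing receptor gene Cxcr4 (0.02 ± 0.25) and the integrin genes Itga4 (0.34 ± 0.20) and Itgal (0.58 ± 0.24), chosen after their values were seen, had adjusted p = 0.995, 0.431 and 0.207 in this order.

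**Figure D4:**
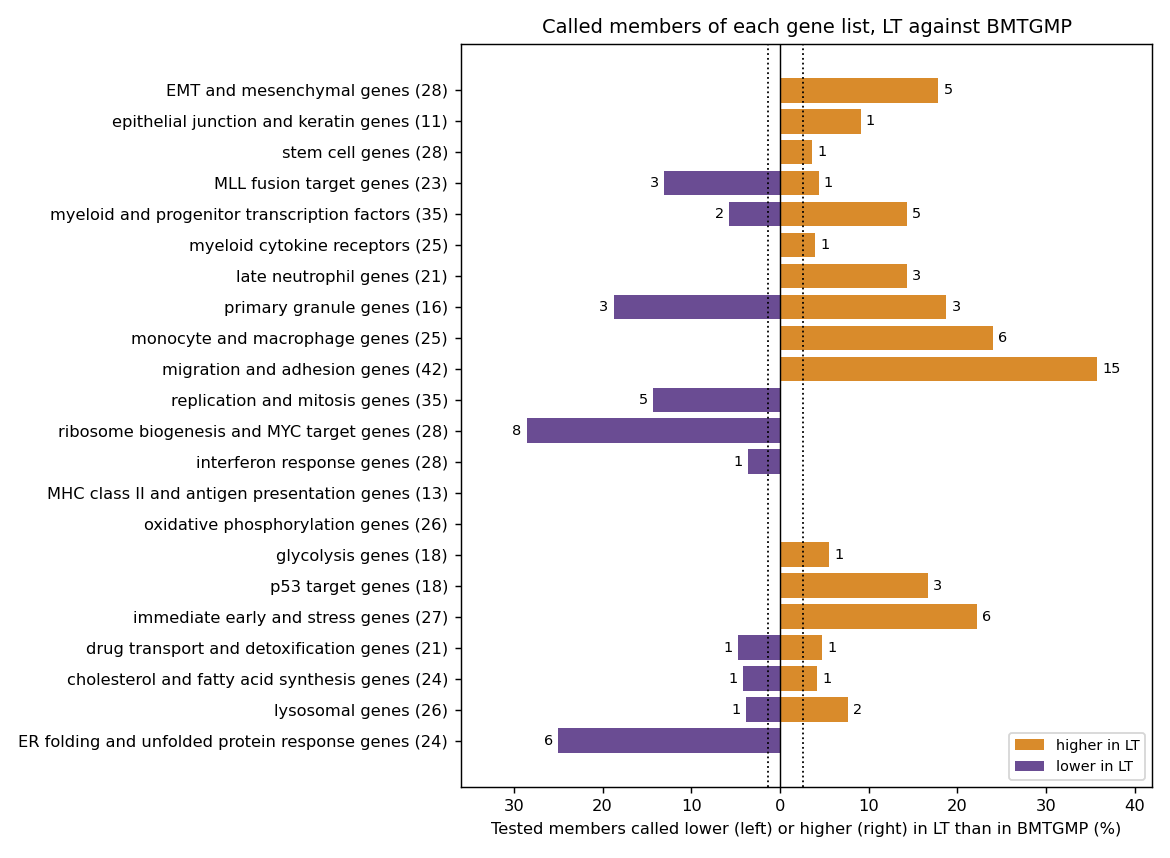
Percent of the tested members of 22 gene lists called higher (right) or lower (left) in LT than in BMTGMP, with the number of called members beside each bar, the number tested in parentheses and dotted lines at the shares over all genes (2.56% higher and 1.36% lower). Migration and adhesion genes reach furthest to the right by edgeR with 15 of 42, and ribosome biogenesis genes with 8 of 28 furthest to the left.

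Genes of mature myeloid cells were higher in LT in part. Of 25 monocyte and macrophage genes, 6 were called higher and 0 lower (median 1.41; 16 at an unadjusted p under 0.05; DESeq2 11 and 1). Cybb, a subunit of the phagocyte oxidase, ran from 957 to 2187 CPM with a median of 1662 in the LT libraries, against 278, 469 and 247 CPM in the BMTGMP libraries and 209.8, 147, 173 and 208 CPM in wtGMP. The Cybb log2 fold change was 2.30 ± 0.26 (adjusted p = 1.49e-05). Lyz2 (lysozyme) ran from 2696 to 6606 CPM with a median of 4194 in the LT libraries, against 1965, 1529 and 1099 CPM in the BMTGMP libraries and 445, 363, 563 and 550.0 CPM in wtGMP (log2 fold change 1.61 ± 0.25, adjusted p = 0.000493), and shares sequence with Lyz1. LT and BMTGMP did not overlap at either gene, and the log2 fold change of LT over wtGMP was 3.15 ± 0.24 for Cybb and 3.29 ± 0.25 for Lyz2. Cd14, a receptor for bacterial lipopolysaccharide, ran from 15.2 to 128 CPM with a median of 46.4 in the LT libraries, against 3.55, 6.86 and 3.10 CPM in the BMTGMP libraries. The Cd14 log2 fold change was 3.50 ± 0.79 (adjusted p = 0.0203). Cx3cr1, a chemokine receptor gene named after its values were seen, was at 25.4 to 105 CPM in LT against 20.2 to 29.2 CPM in BMTGMP (log2 fold change 1.23 ± 0.34, adjusted p = 0.0357). The count was 2 without BMTGMP 2 and 2 without BMTGMP 4, and the Cd14 call was lost without BMTGMP 1 (0.137), BMTGMP 2 (0.0789) or BMTGMP 4 (0.159), and with LTlate-titled LT libraries alone (0.0678, log2 fold change 2.26). Summed over the list, the level was 6297 to 15103 CPM in LT, 2973 to 5306 in BMTGMP and 2901 to 3589 in wtGMP.

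Late neutrophil genes had a high median, and their calls differed between edgeR and DESeq2. Of 21 tested, edgeR called 3 higher and 0 lower (median 2.11), beside 2.56% higher over all genes. An unadjusted p under 0.05 was found at 17, and DESeq2 called 14 higher. Anxa1, an annexin that limits inflammation, ran from 865 to 1662 CPM with a median of 1207 in the LT libraries, against 235, 524 and 223 CPM in the BMTGMP libraries and 340.5, 297, 310.0 and 315 CPM in wtGMP. The Anxa1 log2 fold change was 1.94 ± 0.24 (adjusted p = 1.66e-05). Anxa1, Padi4 and Mmp9 were the called genes. S100a9, a subunit of the neutrophil protein calprotectin, and the granule protein gene Ngp, chosen after their values were seen, were at 1899.5 to 12106 CPM in LT against 549.6 to 2643 CPM in BMTGMP and at 1557 to 5787 CPM in LT against 362 to 1747 CPM in BMTGMP, and were not called (log2 fold change 2.17 ± 0.73, adjusted p = 0.137 for S100a9; log2 fold change 1.84 ± 0.54, adjusted p = 0.0904 for Ngp). The summed level was 7307 to 35635 CPM in LT, 2278 to 10540.0 in BMTGMP and 551 to 647 in wtGMP. Without LT 6 the list had 5 higher calls, and with LTearly-titled LT libraries alone 12. The part of mature cells in the differences between LT and BMTGMP was not tested.

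Primary granules form at the promyelocyte stage. Of 16 genes listed with them, 3 were called higher and 3 lower (median -0.32). A place in the list does not mean that the product is stored in these granules. Summed over the list, the level was 8936 to 17588 CPM in LT, 19639 to 24623 in BMTGMP and 43260 to 50342.5 in wtGMP. All LT sums thus lay below all BMTGMP sums. The protease gene Ctsg (cathepsin G) ran from 130.1 to 488 CPM with a median of 295 in the LT libraries, against 887, 610.4 and 785 CPM in the BMTGMP libraries and 1342, 1201, 1300.4 and 1143 CPM in wtGMP. The Ctsg log2 fold change was -1.39 ± 0.29 (adjusted p = 0.0111). Elane (neutrophil elastase) and Prtn3 (proteinase 3), chosen after their values were seen, were at 109 to 628 CPM in LT against 870.2 to 1372 CPM in BMTGMP (log2 fold change -1.61 ± 0.37, adjusted p = 0.0292) and at 27.5 to 149.8 CPM in LT against 188 to 247 CPM in BMTGMP (log2 fold change -1.16 ± 0.30, adjusted p = 0.0384). All 3 serine proteases were below BMTGMP in every LT library, and BMTGMP against wtGMP was not called at any of them (adjusted p = 0.289, 0.899 and 0.397). All BMTGMP libraries still lay below all wtGMP libraries at Ctsg (log2 fold change -0.71 ± 0.35). Ctsc, the protease that activates these serine proteases, ran from 42.3 to 162 CPM with a median of 83.9 in the LT libraries, against 35.8, 7.51 and 21.3 CPM in the BMTGMP libraries. The Ctsc log2 fold change was 2.21 ± 0.49 (adjusted p = 0.0179). Hp (haptoglobin) ran from 488 to 955 CPM with a median of 672 in the LT libraries, against 404, 481 and 329 CPM in the BMTGMP libraries (log2 fold change 0.78 ± 0.20, adjusted p = 0.0186), and Mgst1, a glutathione transferase gene, ran from 10.96 to 39.7 CPM with a median of 28.2 in the LT libraries, against 6.91, 11.3 and 6.62 CPM in the BMTGMP libraries. The Mgst1 log2 fold change was 1.68 ± 0.42 (adjusted p = 0.0198). LT 8 lay inside the BMTGMP range at Mgst1, and the groups were apart at Ctsc and Hp. The call of Ctsg was lost without BMTGMP 1 (0.0679) or BMTGMP 4 (0.0787). That of Ctsc was lost without BMTGMP 2 (0.0509) or BMTGMP 4 (0.134). That of Hp was lost without BMTGMP 1 (0.0792) or BMTGMP 4 (0.154), and with LTlate-titled LT libraries alone (0.106). That of Mgst1 was lost without BMTGMP 1 (0.115) or BMTGMP 4 (0.121), and with LTlate-titled LT libraries alone (0.397, log2 fold change 0.90). Without BMTGMP 1 the list had 1 higher and 1 lower call, without BMTGMP 2 it had 3 and 1, and without BMTGMP 4 it had 0 and 0.

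Of 27 immediate early and stress genes, 6 were called higher and 0 lower (median 1.40; 13 at an unadjusted p under 0.05; DESeq2 11 and 0). Zfp36, which destabilises mRNAs of cytokines, ran from 110.0 to 267 CPM with a median of 169 in the LT libraries, against 88.0, 74.6 and 42.8 CPM in the BMTGMP libraries. The Zfp36 log2 fold change was 1.42 ± 0.28 (adjusted p = 0.00324). Egr1, a zinc finger factor induced by growth signals, ran from 45.8 to 194 CPM with a median of 83.6 in the LT libraries, against 31.1, 14.5 and 9.31 CPM in the BMTGMP libraries (log2 fold change 2.46 ± 0.54, adjusted p = 0.0191), with a call lost without BMTGMP 2 (0.12) or BMTGMP 4 (0.13). Klf2 and Nr4a1, described above, are called members of the same list. The remaining called members were Dusp6 (2.15 ± 0.52) and Nfkbia (1.72 ± 0.41). These feedback inhibitors of ERK and NF-kB signalling were chosen after their values were seen. Fos (log2 fold change 1.75 ± 0.52, adjusted p = 0.088) and Jun (log2 fold change 0.14 ± 0.44, adjusted p = 0.964), also chosen so, were not called. The count was 3 without BMTGMP 4. Such genes respond to handling and sorting of cells, whose part in the difference was not tested.

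Of 25 myeloid cytokine receptor genes, 1 was called higher and 0 lower (median 0.51; DESeq2 5 and 0). The count was 4 without BMTGMP 1, 2 without LT 7 and 0 without BMTGMP 4. Il6st (gp130), the shared chain of interleukin-6 type receptors, ran from 40.8 to 117 CPM with a median of 70.9 in the LT libraries, against 35.8, 34.4 and 20.9 CPM in the BMTGMP libraries and 148, 139.7, 194 and 165 CPM in wtGMP. The Il6st log2 fold change was 1.21 ± 0.29 (adjusted p = 0.0141). Both leukaemia groups were called lower than wtGMP at Il6st, with a log2 fold change of -1.20 ± 0.23 for LT. The call against BMTGMP was lost without BMTGMP 4 (0.132), and with LTlate-titled LT libraries alone (0.274, log2 fold change 0.51). Of 18 p53 target genes, 3 were called higher and 0 lower (median 0.41; DESeq2 6 and 0). In the same list 0 were called when any 1 BMTGMP library was left out, and 1 was called without LT 5 and 0 with LTlate-titled LT libraries alone. Bbc3 (Puma), which triggers apoptosis, ran from 4.10 to 16.4 CPM with a median of 9.55 in the LT libraries, against 0.934, 0.648 and 0 CPM in the BMTGMP libraries. The Bbc3 log2 fold change was 4.11 ± 1.12 (adjusted p = 0.0332). Trp53inp1, a stress response gene, ran from 26.8 to 96.1 CPM with a median of 46.6 in the LT libraries, against 20.7, 26.4 and 14.7 CPM in the BMTGMP libraries (log2 fold change 1.35 ± 0.38, adjusted p = 0.0373), and Btg2, which slows division, ran from 132 to 347 CPM with a median of 188 in the LT libraries, against 109, 111 and 60.2 CPM in the BMTGMP libraries. The Btg2 log2 fold change was 1.17 ± 0.32 (adjusted p = 0.0452). The groups did not overlap at these 3 genes. The call of Bbc3 was lost without LT 4 (0.0653), LT 6 (0.0614), BMTGMP 1 (0.0727, log2 fold change 4.74), BMTGMP 2 (0.106) or BMTGMP 4 (0.15), and with LTearly-titled LT libraries alone (0.0973), LTlate-titled LT libraries alone (0.061) or transcripts summed per gene (0.0675). That of Trp53inp1 was lost without LT 2 (0.0754), LT 5 (0.0585), BMTGMP 1 (0.125), BMTGMP 2 (0.0613) or BMTGMP 4 (0.206), and with wtGMP left out of the fit (0.0501), LTlate-titled LT libraries alone (0.405) or transcripts summed per gene (0.0511). That of Btg2 was lost without LT 1 (0.0583), LT 3 (0.0749), LT 5 (0.0694), LT 7 (0.0613), BMTGMP 1 (0.119), BMTGMP 2 (0.123) or BMTGMP 4 (0.271), and with no low-count filter (0.0662), wtGMP left out of the fit (0.0512), equal weight of early and late LT libraries by column name (0.0544), LTlate-titled LT libraries alone (0.293, log2 fold change 0.57) or transcripts summed per gene (0.0626).

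Of 28 ribosome biogenesis and MYC target genes, 8 were called lower and 0 higher (median -0.73; 18 at an unadjusted p under 0.05; DESeq2 10 and 0). Nolc1, a nucleolar protein gene, ran from 249.8 to 499 CPM with a median of 313 in the LT libraries, against 697, 822 and 611 CPM in the BMTGMP libraries and 752, 863, 1142 and 789 CPM in wtGMP. The Nolc1 log2 fold change was -1.03 ± 0.19 (adjusted p = 0.000945). Wdr12, needed to mature the large ribosomal subunit, ran from 38.3 to 98.6 CPM with a median of 52.0 in the LT libraries, against 159, 124 and 109 CPM in the BMTGMP libraries. The Wdr12 log2 fold change was -1.19 ± 0.23 (adjusted p = 0.00204). Dkc1, the pseudouridine synthase dyskerin, ran from 88.2 to 217 CPM with a median of 128 in the LT libraries, against 349.6, 339 and 232 CPM in the BMTGMP libraries. The Dkc1 log2 fold change was -1.16 ± 0.24 (adjusted p = 0.00608). LT was below BMTGMP without overlap at these 3. BMTGMP against wtGMP was not called at them (log2 fold change -0.32 ± 0.22, 0.39 ± 0.27 and -0.46 ± 0.29, adjusted p = 0.463, 0.464 and 0.405). All BMTGMP libraries still lay below all wtGMP libraries at Dkc1. Nop58, a core protein of box C/D snoRNPs, ran from 421 to 835 CPM with a median of 526.2 in the LT libraries, against 1052, 1108 and 718 CPM in the BMTGMP libraries (log2 fold change -0.76 ± 0.19, adjusted p = 0.0163), with BMTGMP 4 inside the LT range, and its call was lost without BMTGMP 1 (0.0862) or BMTGMP 2 (0.106), and with LTlate-titled LT libraries alone (0.213). Of Nop56, Hspe1, Ddx21 and Srm, named after their values were seen and also called, only Hspe1 overlapped. The count was 12 without LT 6 or LT 8, 3 without BMTGMP 1, 4 without BMTGMP 2 and 5 without BMTGMP 4. With LTearly-titled LT libraries alone it was 17, and with LTlate-titled ones 3.

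**Figure D5:**
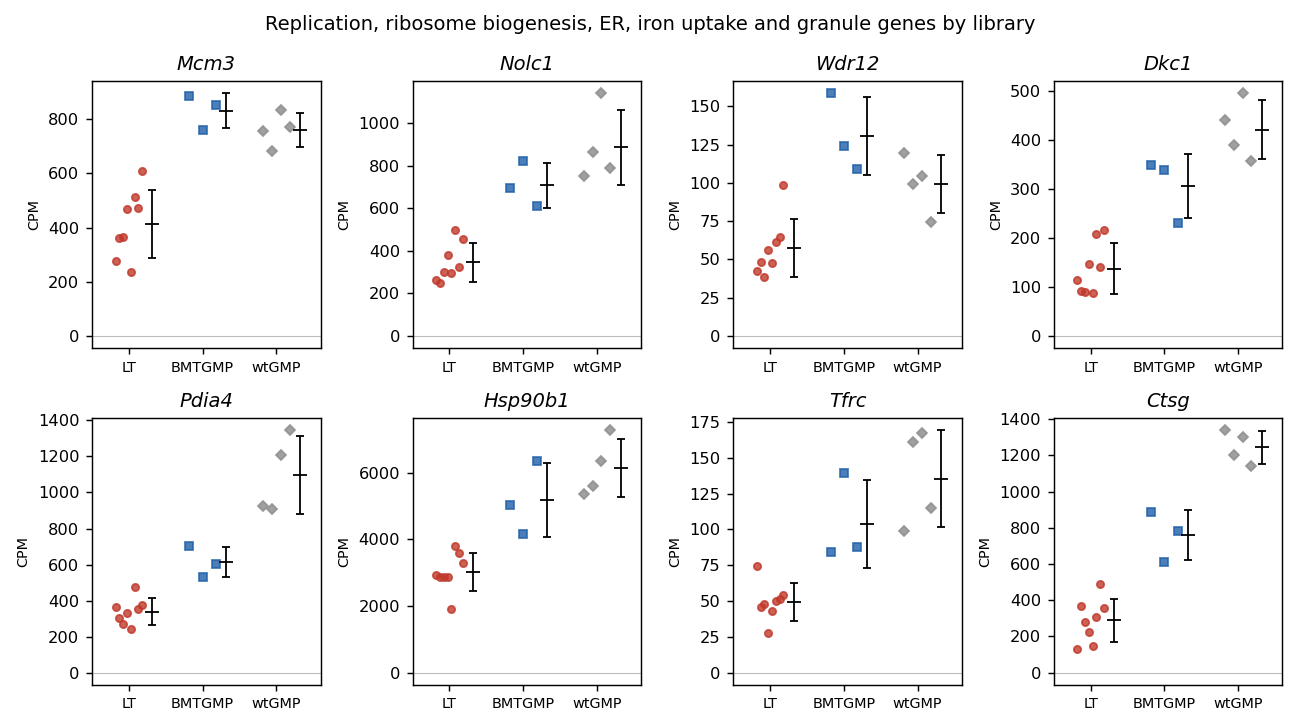
Level of 8 genes called lower in LT than in BMTGMP (CPM, linear axis) in each library of LT (n = 8), BMTGMP (n = 3) and wtGMP (n = 4), with mean and SD in black. All LT points lie below all BMTGMP points at these 8 genes, and wtGMP lies above BMTGMP at Dkc1, Pdia4 and Ctsg and overlaps it at the others.

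Replication and mitosis genes were called lower at 5 of 35 and higher at 0 (median -0.27; 10 at an unadjusted p under 0.05; DESeq2 6 and 0). Mcm3, a subunit of the replicative helicase, ran from 236 to 609 CPM with a median of 417 in the LT libraries, against 884, 759.8 and 850.3 CPM in the BMTGMP libraries. The Mcm3 log2 fold change was -1.01 ± 0.19 (adjusted p = 0.00208). Mcm7, another subunit, ran from 181 to 319.9 CPM with a median of 289.7 in the LT libraries, against 427, 448 and 358 CPM in the BMTGMP libraries (log2 fold change -0.63 ± 0.17, adjusted p = 0.0352), and Mcm2 ran from 78.0 to 183 CPM with a median of 112 in the LT libraries, against 221, 155 and 213 CPM in the BMTGMP libraries. The Mcm2 log2 fold change was -0.77 ± 0.19 (adjusted p = 0.0207). Cdc6, which loads the helicase on DNA, ran from 27.5 to 67.8 CPM with a median of 36.5 in the LT libraries, against 85.1, 52.1 and 95.2 CPM in the BMTGMP libraries. The Cdc6 log2 fold change was -0.98 ± 0.26 (adjusted p = 0.0317). LT and BMTGMP were apart at Mcm3 and Mcm7 and overlapped at Mcm2 and Cdc6. Bub1, a mitotic checkpoint kinase gene named after its values were seen, was called without overlap (-0.81 ± 0.22). The call of Mcm2 was lost without BMTGMP 1 (0.124) or BMTGMP 4 (0.114), and with wtGMP left out of the fit (0.0521) or LTlate-titled LT libraries alone (0.207). That of Mcm7 was lost without LT 4 (0.0578), BMTGMP 1 (0.129) or BMTGMP 2 (0.153), and with wtGMP left out of the fit (0.0718), LTlate-titled LT libraries alone (0.0594) or the title number as a block (0.0567). That of Cdc6 was lost without LT 2 (0.0546), LT 4 (0.0513), BMTGMP 1 (0.136) or BMTGMP 4 (0.228), and with wtGMP left out of the fit (0.0586), LTlate-titled LT libraries alone (0.0571) or the title number as a block (0.0638). The count was 1 without BMTGMP 1, 3 without BMTGMP 2, 2 without BMTGMP 4, 3 without LT 2 and 3 without LT 4, and 1 with LTlate-titled LT libraries alone.

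Genes of protein folding in the endoplasmic reticulum (ER) were called lower at 6 of 24 and higher at 0 (median -0.42; 15 at an unadjusted p under 0.05; DESeq2 8 lower and 1 higher). Pdia4, a disulfide isomerase gene, ran from 239.7 to 475 CPM with a median of 344 in the LT libraries, against 703, 534 and 604 CPM in the BMTGMP libraries and 926, 910.2, 1206 and 1347 CPM in wtGMP. The Pdia4 log2 fold change was -0.85 ± 0.17 (adjusted p = 0.00353). The chaperone gene Hsp90b1 ran from 1902 to 3804 CPM with a median of 2897 in the LT libraries, against 5025, 4148 and 6349.9 CPM in the BMTGMP libraries. The Hsp90b1 log2 fold change was -0.78 ± 0.17 (adjusted p = 0.00539). Pdia6 ran from 154 to 278 CPM with a median of 230.5 in the LT libraries, against 378, 344 and 351 CPM in the BMTGMP libraries (log2 fold change -0.68 ± 0.17, adjusted p = 0.0174), and Sdf2l1, part of a chaperone complex, ran from 15.3 to 42.9 CPM with a median of 32.02 in the LT libraries, against 69.0, 55.6 and 52.6 CPM in the BMTGMP libraries. The Sdf2l1 log2 fold change was -1.03 ± 0.27 (adjusted p = 0.0245). All 4 were below BMTGMP in every LT library. Pdia3 (-0.61 ± 0.17) and Creld2 (-1.003 ± 0.28), named after their values were seen, were also called. The call of Hsp90b1 was lost without BMTGMP 4 (0.079). That of Pdia6 was lost without BMTGMP 1 (0.0924) or BMTGMP 4 (0.0586), and with LTlate-titled LT libraries alone (0.0551). That of Sdf2l1 was lost without BMTGMP 1 (0.143), BMTGMP 2 (0.0669) or BMTGMP 4 (0.0595), and with wtGMP left out of the fit (0.0604), LTearly-titled LT libraries alone (0.0624) or libraries thinned to the lowest total (0.0518). The count was 4 without LT 2, LT 3 or BMTGMP 2, 2 without BMTGMP 1 and 1 without BMTGMP 4, and 3 with LTlate-titled LT libraries alone.

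Metabolic and transport genes gave few calls. Tfrc, the transferrin receptor listed with erythroid markers, ran from 27.7 to 74.7 CPM with a median of 48.7 in the LT libraries, against 84.4, 139 and 87.9 CPM in the BMTGMP libraries and 98.6, 161, 167 and 115 CPM in wtGMP (log2 fold change -1.08 ± 0.23, adjusted p = 0.00572), and the call was lost without BMTGMP 2 (0.122). Elovl6, which lengthens fatty acids, ran from 4.40 to 24.5 CPM with a median of 12.9 in the LT libraries, against 1.03, 1.04 and 3.10 CPM in the BMTGMP libraries and 48.8, 49.996, 49.0 and 53.4 CPM in wtGMP. The Elovl6 log2 fold change was 3.04 ± 0.58 (adjusted p = 0.00164). Fasn, which makes them, ran from 67.2 to 115 CPM with a median of 92.7 in the LT libraries, against 148, 205 and 116 CPM in the BMTGMP libraries. The Fasn log2 fold change was -0.79 ± 0.21 (adjusted p = 0.0254). The Fasn call was lost without BMTGMP 1 (0.0611) or BMTGMP 2 (0.287), and with LTlate-titled LT libraries alone (0.172). The pair went opposite ways against BMTGMP, 1 up and 1 down of 24 cholesterol and fatty acid synthesis genes (median -0.03). Of 18 glycolysis genes, 1 was called higher and 0 lower (median 0.27; DESeq2 4 and 0). Slc2a1, the glucose transporter GLUT1, ran from 14.8 to 111 CPM with a median of 25.7 in the LT libraries, against 8.03, 5.57 and 7.66 CPM in the BMTGMP libraries (log2 fold change 2.39 ± 0.65, adjusted p = 0.0445), with LT 1 far above the rest, and its call was lost without LT 3 (0.0743), LT 5 (0.062), BMTGMP 1 (0.172), BMTGMP 2 (0.227) or BMTGMP 4 (0.206), and with median-ratio size factors (0.0598), no low-count filter (0.0546), LTlate-titled LT libraries alone (0.0939) or transcripts summed per gene (0.0572).

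Of 21 drug transport and detoxification genes, 1 was called higher (Abcb1b, above) and 1 lower (median 0.20). Abcg2, the efflux pump of side-population stem cells, ran from 0 to 6.22 CPM with a median of 0.745 in the LT libraries, against 12.98, 22.1 and 20.3 CPM in the BMTGMP libraries and 18.1, 13.9, 21.5 and 16.5 CPM in wtGMP. The Abcg2 log2 fold change was -3.57 ± 0.95 (adjusted p = 0.0416). LT was below BMTGMP and wtGMP at Abcg2 without overlap. Its call was lost without LT 1 (0.0511), LT 4 (0.0732), LT 8 (0.0526), BMTGMP 1 (0.0901), BMTGMP 2 (0.137) or BMTGMP 4 (0.15), and with no low-count filter (0.0682), wtGMP left out of the fit (0.103), LTearly-titled LT libraries alone (0.0874), transcripts summed per gene (0.0624) or the title number as a block (0.0597). Leaving out any 1 wtGMP library also left 0 lower calls in the list. Of 26 lysosomal genes, 2 were called higher and 1 lower (median 0.24; DESeq2 5 and 1). The protease genes Ctsh, which ran from 80.3 to 120.2 CPM with a median of 105 in the LT libraries, against 47.6, 29.7 and 33.1 CPM in the BMTGMP libraries (log2 fold change 1.47 ± 0.23, adjusted p = 0.000229), and Ctsb, which ran from 249.9 to 535 CPM with a median of 364 in the LT libraries, against 233, 134 and 148 CPM in the BMTGMP libraries (log2 fold change 1.11 ± 0.21, adjusted p = 0.00163), rose. Gusb, a glucuronidase gene, ran from 31.4 to 97.5 CPM with a median of 61.6 in the LT libraries, against 115, 141 and 120.0 CPM in the BMTGMP libraries (log2 fold change -0.95 ± 0.25, adjusted p = 0.0257), with a call lost without BMTGMP 1 (0.0542), BMTGMP 2 (0.121) or BMTGMP 4 (0.0678), and with wtGMP left out of the fit (0.0572) or LTlate-titled LT libraries alone (0.217). Without LT 1 or LT 7 the list had 4 higher calls, and with LTlate-titled LT libraries alone 5. Of 26 oxidative phosphorylation genes, 0 were called by edgeR or DESeq2 (1 at an unadjusted p under 0.05, median -0.11).

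Interferon response genes held 1 lower call among 28 and 0 higher (median 0.59; 6 at an unadjusted p under 0.05; DESeq2 1 and 1). Ifit2, an interferon-induced RNA-binding protein gene, ran from 15.03 to 33.0 CPM with a median of 22.7 in the LT libraries, against 63.3, 81.7 and 48.4 CPM in the BMTGMP libraries and 43.5, 23.4, 25.3 and 17.2 CPM in wtGMP (log2 fold change -1.51 ± 0.29, adjusted p = 0.00197), with LT below BMTGMP in every library and overlapping wtGMP. Among 13 genes of antigen presentation on MHC class II, 0 were called (3 at an unadjusted p under 0.05; DESeq2 3 higher), with a median of 1.37. Their summed level was 754 to 4566 CPM in LT, 240 to 659 in BMTGMP and 182 to 286 in wtGMP. The LT sums thus all lay above the BMTGMP sums, though no single gene was called by edgeR.

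Markers of other cell types gave few calls by edgeR, and 0 were called among 4 B cell, 8 T and NK cell, 4 megakaryocyte, 11 eosinophil, basophil and mast cell, and 14 stromal and endothelial markers, with 0, 1, 0, 4 and 0 at an unadjusted p under 0.05. DESeq2 called 3 of the eosinophil, basophil and mast cell markers higher and 0 in the other 4 lists. Summed levels were 2.12 to 24.3 CPM in LT and 11.3 to 18.2 in BMTGMP for B cell markers, and 76.9 to 415 in LT and 36.0 to 73.3 in BMTGMP for eosinophil, basophil and mast cell markers. They were 5.07 to 34.0 CPM in LT and 4.76 to 12.6 in BMTGMP for T and NK cell markers, 19.5 to 31.8 and 2.89 to 22.8 for megakaryocyte markers, and 153 to 484 and 140.3 to 208 for stromal and endothelial markers. Of 9 dendritic cell markers, 1 (Tcf4) was called higher and 0 lower (median 1.30), while DESeq2 called 4 higher and edgeR 2 without BMTGMP 1, with a summed level of 124 to 289 CPM in LT and 33.7 to 75.5 in BMTGMP. Of 8 erythroid markers, 1 (Tfrc) was called lower and 0 higher by either tool, with a median of 1.14 over the list. The erythroid sum, most of which was Tfrc, was 45.3 to 82.7 CPM in LT and 88.3 to 142 in BMTGMP. The part of other cell types in the differences was not tested.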

How the data were processed

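RNA of sorted bone marrow cells was sequenced after a low-input ScriptSeq preparation, per the labels. The authors deposited 1 table of 28847 RefSeq transcripts on mm9 with an expected count per library; per the file headers, reads with up to 100 hits were kept. The submitters' processing notes name Bowtie, version 0.9.9.1. Of the values 13.75% are not whole (tolerance 1e-06), as reads with several hits are divided, so counts were rounded. The kit marks strand, but whether counting used it is not given in the sources used here.

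Symbols were found for 26092 transcripts (25977 in a RefSeq table, 115 in GENCODE), giving 20453 genes, and for each gene the transcript with the largest mean count was kept. Transcripts without a symbol held 3.51% to 4.16% of the counts. The table has 1 column that matches no sample and was not used. No library was identical to another over all genes.

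All 15 libraries entered 1 fit with a mean for each group (edgeR 4.0.16 under R 4.3.3: TMM, filterByExpr, robust quasi-likelihood test, 2-sided, Benjamini-Hochberg adjustment over 15242 genes), with a common biological coefficient of variation of 0.850. SEs were derived from the fold change and the F statistic. Alternatives were 12 other settings, DESeq2 1.42.0 among them, and leaving out each of the 11 LT and BMTGMP libraries, and each wtGMP library. A gene with no count in a group was given a floor of 3 counts. This covers counting error only.

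Named were the 14 largest gaps in each direction among called genes with at least 5 CPM (CPM with 0.5 added), up to 4 called members with the smallest p of each of 29 lists (2 for marker lists), and Mecom, Erg, Zeb1, Tcf4, Hoxa9, Meis1, Kmt2a and Mllt3. Some genes that this rule names are not reported here. The lists hold 594 genes, 590 of them in the table. Groups, lists and this rule were chosen with earlier results of these data known. The 12 motifs were chosen after a first look at promoters of these genes, and all 12 are reported. The test was checked on simulated data.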

Additional observations from a re-analysis of the deposited data

Results flagged for a closer look

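In a group of 4 to 10 libraries, a library was singled out when its gap to the nearest other exceeded Dixon's 95% limit, which chance gives in about 5% of groups; 7 of 162 groups tested were singled out. Among LT libraries, Cd44 in LT 1 was at 1011 CPM, against 432 to 579 in the other 7. Slc2a1 in LT 1 was at 111 CPM, against 14.8 to 38.3, and Hsp90b1 in LT 5 was at 1902 CPM, against 2860 to 3804. Among wtGMP libraries, wtGMP 4 stood apart at Igfbp4 (322 CPM, against 272 to 279), at Slc39a8 (11.1 CPM, against 17.4 to 18.6) and at Mecom (3.81 CPM, against 0 in each of the others), and wtGMP 1 at Btg2 (84.9 CPM, against 42.04 to 46.4). The group of 3 BMTGMP libraries was too small to be examined in this way.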

How the results depend on the processing

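The counts of 390 genes higher and 208 lower were recomputed under 12 other settings. DESeq2 gave 868 higher and 342 lower (and 1305 in BMTGMP against wtGMP, where edgeR gave 803), only LT and BMTGMP libraries in the fit gave 117 lower (329 higher), and LTearly-titled libraries alone gave 388 lower (450 higher). The other settings kept both counts within 1.5 times. Leaving out 1 LT or BMTGMP library gave 175 to 431 higher and 86 to 261 lower, and 173 to 370 and 85 to 215 without overlap, an alternative chosen after seeing the data. Leaving out BMTGMP 4 lowered both counts most. Against wtGMP, leaving out 1 library gave 2230 to 2946 genes for LT and 580 to 934 for BMTGMP. The median log2 fold change of all genes was 0.19 without BMTGMP 4, against 0.05 with it. Deviations from the group means correlated at -0.157 to -0.0429 between LT and BMTGMP libraries with the same title number, and at -0.0469 to 0.0507 in the other pairs of groups. Libraries with different numbers were not compared, so whether the numbers mark sets prepared together cannot be told. With the title number as a block in the fit 342 genes were higher and 182 lower, with 2744 called for LT and 680 for BMTGMP against wtGMP. Of the 76 called genes named by the rule, 39 stayed called in all 23 alternatives, and none of the 76 changed sign in them. These 23 do not include the fits that left out a single wtGMP library. Lost calls of named genes were not counted over those fits. Kmt2a and Mllt3, named but not called, did change sign, with log2 fold changes from -0.193 to 0.152 and from -0.0091 to 0.978. With 3 BMTGMP libraries of 4555960 to 10712578 counts, differences of low genes rest on few counts.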

Other observations

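Gene families outside the lists were assembled after seeing which genes were called, so their counts describe these data and carry no test. The single genes named here were chosen in the same way. Of 36 actin-binding and membrane-linker genes, 19 were called higher in LT than in BMTGMP and 1, Rdx, lower (median log2 fold change 0.68). Lsp1, an actin-binding protein of leukocytes, was at 419 to 945 CPM in LT against 135 to 173 CPM in BMTGMP (log2 fold change 2.23 ± 0.22, adjusted p = 7.69e-07). Ezr (ezrin), which ties the membrane to actin, was at 564 to 1318 CPM in LT against 168 to 265 CPM in BMTGMP (log2 fold change 1.95 ± 0.25, adjusted p = 2.56e-05), and its relative Msn (moesin) at 2171 to 4155 CPM in LT against 1308 to 1949 CPM in BMTGMP (log2 fold change 0.95 ± 0.18, adjusted p = 0.00197). Of 9 tested S100 genes 3 were called higher, and of 10 annexin genes 3. S100a10 was at 63.4 to 135 CPM in LT against 16.3 to 38.5 CPM in BMTGMP (log2 fold change 1.94 ± 0.30, adjusted p = 0.000185), and its binding partner Anxa2 at 188 to 467 CPM in LT against 46.6 to 169 CPM in BMTGMP (log2 fold change 1.33 ± 0.35, adjusted p = 0.043). Of 5 retinoid receptor genes 3 were called higher, Rara, Rarg (2.82 ± 0.66) and Rxra (1.85 ± 0.43). Of 8 Ugt1a genes 7 were called higher, but these share exons and their counts cannot be separated.

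In the other direction, 6 of 25 nucleotide and folate synthesis genes were called lower and 1, Impdh1, higher (median -0.52). Umps, which makes UMP, was at 43.8 to 84.9 CPM in LT against 107 to 154 CPM in BMTGMP (log2 fold change -0.96 ± 0.20, adjusted p = 0.00464), and the folate enzyme gene Shmt1 at 3.57 to 31.9 CPM in LT against 38.1 to 74.7 CPM in BMTGMP (log2 fold change -1.67 ± 0.38, adjusted p = 0.0129). Of 20 nucleoporin genes 3 were called lower, Nup85, Nup93 and Nup107. Muc13, a membrane mucin gene, was at 4.53 to 18.3 CPM in LT against 37.2 to 126 CPM in BMTGMP (log2 fold change -3.04 ± 0.35, adjusted p = 1.66e-05), and Pik3r1, a regulatory subunit of PI3 kinase, at 299.9 to 486 CPM in LT against 506 to 746 CPM in BMTGMP (log2 fold change -0.74 ± 0.16, adjusted p = 0.00736). Cd34 itself was at 6.75 to 149 CPM in LT against 3.37 to 6.62 CPM in BMTGMP, with no overlap, and was not called (log2 fold change 3.73 ± 0.996, adjusted p = 0.0615). Myeloperoxidase (Mpo) was lower in all 8 LT libraries, at 249.7 to 4784 CPM in LT against 5748 to 9008 CPM in BMTGMP, and was not called (log2 fold change -2.39 ± 0.70, adjusted p = 0.0866).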
